A study of Caenorhabditis elegans with 6 samples.

Results

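Cytoplasmic dynein 1, its cofactor dynactin and the LIS1 and NudE regulators were examined at the transcript level in the sister blastomeres of the 2-cell *C. elegans* embryo. The 10 genes were chosen by public name from the 20240 gene models of the deposited count table, and all 10 were found. They were *dhc-1*, *dyci-1*, *dli-1*, *dylt-1*, *dlc-1* and *dyrb-1* for the motor, *dnc-1* and *dnc-2* for dynactin, and *lis-1* and *nud-2* for the regulators. The study sequenced polyadenylated RNA from pools of hand-separated P1 cells (3 libraries) and from pools of their AB sisters (3 libraries). Both cells came from embryos of the wild-type N2 strain, with eggshells removed before separation, and no treatment or mutation distinguished the groups. The study pooled matched cells for each replicate, so the P1 and AB libraries that share a replicate number were treated as 3 pairs of sister cells.

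Cytoplasmic dynein 1 is a motor that walks toward the minus ends of microtubules. A pair of heavy chains carries the motor domains, the intermediate and light intermediate chains link them to cargo and to dynactin, and dimers of light chains complete the tail. Dynactin makes the motor processive and connects it to cargo, while LIS1 and NudE act on the motor's activation. In the *C. elegans* zygote and its daughters dynein is known for migration of the pronuclei, centrosome separation and the cortical pulling forces that move the spindle toward the posterior, which leave P1 the smaller cell. P1 is the posterior, germline-founding cell and AB the anterior somatic cell. Almost all the mRNA at this stage was made by the mother.

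Libraries held between 21249850 and 35591254 reads assigned to genes, so that 3 reads corresponded to 0.0843 to 0.141 CPM. Values below are normalized read counts, the assigned reads divided by a size factor for each library. The cell labels were checked with *mex-3*, known from earlier work as an AB transcript. It had 28710 to 35357 normalized read counts in P1 and 60132 to 65459 in AB. *chs-1* had 2523 to 4932 in P1 and 390 to 850 in AB. The study took *chs-1* from the P1-enriched list of these same libraries and then saw its P1 bias by in situ hybridization. Its counts are therefore no independent check of the labels. P1 replicate 1 stood apart, with a correlation of log values of 0.911 to 0.924 with the others, against 0.951 to 0.980 among the remaining 5 libraries. Among markers of other tissues of the mother, 1 of 28 sperm genes found had any read, and the 6 vitellogenin (yolk protein) genes summed to 348, 10.5 and 1.94 normalized read counts in P1 replicates 1, 2 and 3, against 296, 4.44 and 4.20 in AB. Of 2 muscle markers 1 was found, *myo-3*, at 51.2 in AB replicate 3, 5.43 in P1 replicate 1 and 0 in every other library. The 3 hypodermis markers summed to at most 21.7 in any library. Because each library pools cells and is scaled to its own total, fewer cells with a transcript and less of it per cell cannot be told apart.

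No gene of the 10 was called enriched in P1 or in AB here, although the study describes *dnc-1* as enriched in AB. *dnc-1*, which encodes the largest dynactin subunit, and *dhc-1*, the heavy chain, were lowest in P1 relative to AB. A gene was called when edgeR's Benjamini-Hochberg adjusted p was under 0.10 and the gene was present, meaning a mean normalized count above 10 and reads in each cell type. All 10 genes were present. The call was made for 0.604% of the 7945 present genes as AB-enriched and for 0.856% as P1-enriched, and edgeR called 0 of the 10 in either direction. DESeq2 also called 0 of the 10, against 2.14% of present genes called in either direction. At an unadjusted p under 0.05, edgeR placed 2 of the 10, against 10.4% of present genes, and both were lower in P1 (4.59% of present genes). The values of 4 genes, *dhc-1*, *dyci-1*, *dli-1* and *dnc-1*, were lower in every P1 library than in any AB library, against 8.81% of present genes, and 0 of the 10 were higher without overlap, against 7.10%. Within pairs, these 4 genes were lower in P1 in all 3 pairs (21.4% of present genes) and *dylt-1* and *dyrb-1* were higher in all 3 (19.1%). The median log2 fold change, P1 over AB, was -0.06 over the 10 and 0.01 over all present genes.

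The heavy chain gene *dhc-1* (T21E12.4, chromosome I, 4386788 to 4401981 in ce10) encodes the ATPase that moves the complex. It had 8451, 11240 and 9443 normalized read counts in P1 replicates 1, 2 and 3, against 19397, 13806 and 12202 in AB. The groups did not overlap, AB replicate 1 was the highest library and P1 replicate 1 the lowest. The log2 fold change was -0.64 ± 0.24 (SE, n = 3 each; 95% interval -1.14 to -0.14), with an adjusted p of 0.409 by edgeR. The paired log2 ratios were -1.20, -0.30 and -0.37, so the first pair carried the widest gap. Without P1 replicate 1 the gene passed the threshold (log2 fold change -0.57, edgeR adjusted p 0.0334, where 3.51% of present genes were AB-enriched), and without both libraries of pair 1 it did not (log2 fold change -0.34, edgeR adjusted p 0.393).

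The intermediate chain gene *dyci-1* (C17H12.1, chromosome IV, 6779849 to 6784331), whose product joins the heavy chains to dynactin and the light chains, had 3127, 3439 and 3261 normalized read counts in P1 and 5215, 3940 and 3612 in AB. P1 libraries were close together, and AB replicate 1 was again the highest. Its log2 fold change was -0.38 ± 0.23 (SE; 95% interval -0.84 to 0.08), which did not pass the test (edgeR adjusted p 0.686). The light intermediate chain gene *dli-1* (C39E9.14, chromosome IV), an attachment point for cargo adaptors, had 4415, 4104 and 3669 in P1 and 4748, 4648 and 4717 in AB. Its AB libraries were close together and above all 3 P1 libraries, and the paired log2 ratios were -0.10, -0.18 and -0.36. For this gene the log2 fold change was -0.22 ± 0.22 (SE; 95% interval -0.67 to 0.23; edgeR adjusted p 0.746). The RefSeq name given for *dli-1* in the table lists a duplicate, so its count is uncertain to the extent that reads could be divided between copies.

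**Figure D1:**
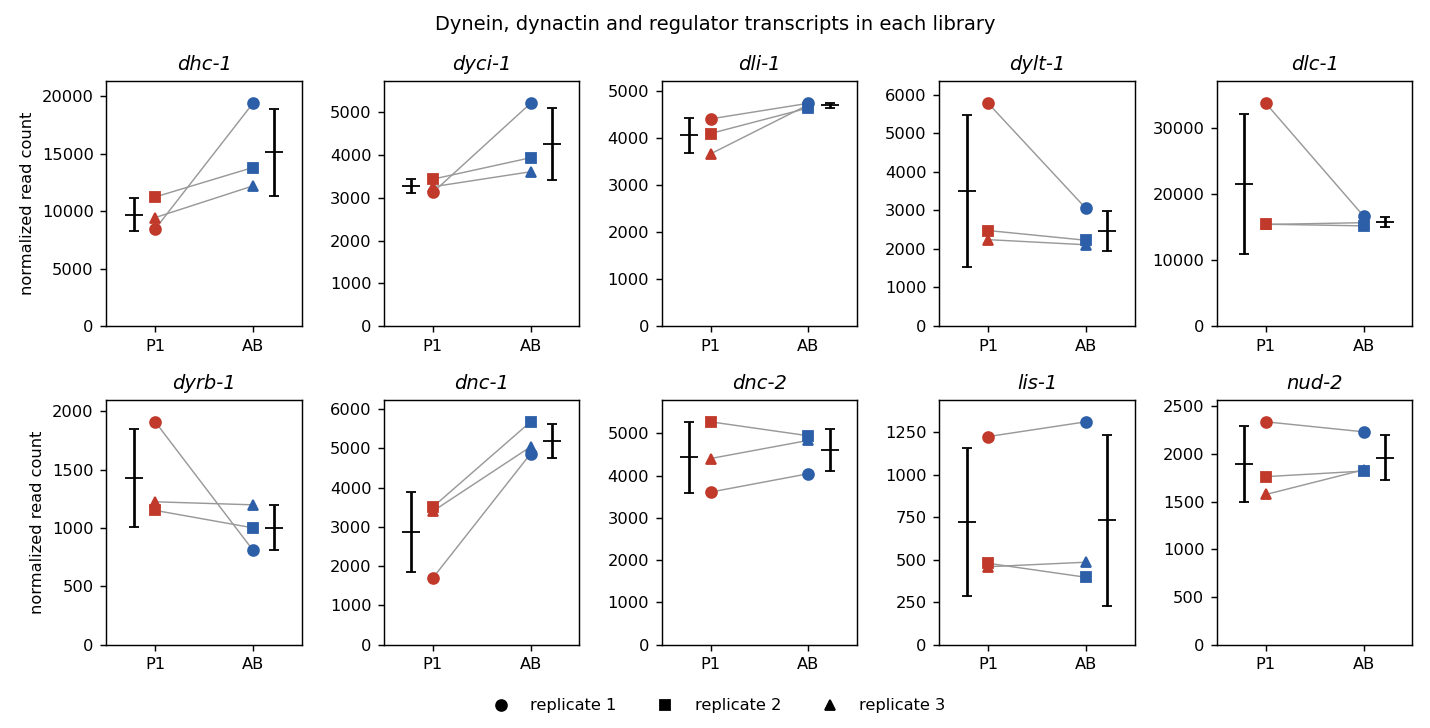
Normalized read count (vertical axes, from 0) of each of the 10 genes in the 3 P1 libraries (red, left) and 3 AB libraries (blue, right). Symbols are replicates, grey lines join libraries of the same replicate number and black bars are the mean ± SD. *dhc-1*, *dyci-1*, *dli-1* and *dnc-1* do not overlap between cells, and for *dlc-1* and *dylt-1* the P1 mean is raised by replicate 1.

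The 3 light chains had positive fold changes that did not pass the test, and P1 replicate 1 was the highest library for each. *dlc-1* (T26A5.9, chromosome III, 6462855 to 6463727), the LC8 light chain that also serves as a dimerization hub for other proteins, had 33799, 15453 and 15410 normalized read counts in P1, against 16683, 15197 and 15684 in AB. P1 replicate 1 was the only library apart from the rest, and the remaining 5 lay between 15197 and 16683. The log2 fold change of 0.43 ± 0.27 (SE; 95% interval -0.13 to 1.00; edgeR adjusted p 0.686) became -0.063 without P1 replicate 1 and -0.0072 without pair 1.

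*dylt-1* (F13G3.4, chromosome I, 7300079 to 7300913), the Tctex1-type light chain, had 5773, 2475 and 2239 normalized read counts in P1 and 3048, 2223 and 2106 in AB. The same P1 library was highest and the groups overlapped. P1 exceeded AB by a log2 fold change of 0.50 ± 0.28 (SE; 95% interval -0.08 to 1.08; edgeR adjusted p 0.682), and it was -0.083 without P1 replicate 1. *dyrb-1* (T24H10.6, chromosome II, 9106452 to 9107083), the roadblock light chain, had 1909, 1150 and 1223 in P1 and 809, 1000 and 1197 in AB. The groups overlapped, as AB replicate 3 was above P1 replicate 2. The *dyrb-1* log2 fold change was 0.50 ± 0.26 (SE; 95% interval -0.04 to 1.04; edgeR adjusted p 0.668), and 0.22 without P1 replicate 1. P1 replicate 1 exceeded every other library by more than 1.5 times for these 3 of the 10 genes, as it did for 12.3% of present genes.

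Of the dynactin subunits, *dnc-1* (ZK593.5, chromosome IV) encodes p150Glued, the arm that binds microtubules and the dynein intermediate chain. It had 1696, 3504 and 3397 normalized read counts in P1 replicates 1, 2 and 3, against 4862, 5676 and 5040 in AB. Every P1 library was below every AB library, with means of 2866 ± 1014 in P1 and 5193 ± 428 in AB (SD, n = 3 each). The paired log2 ratios were -1.52, -0.70 and -0.57, so the direction did not rest on the first pair. The log2 fold change was -0.86 ± 0.26 (SE; 95% interval -1.38 to -0.34), the farthest from 0 of the 10 genes, and a fold of 0.551. With an unadjusted p of 0.00226, the edgeR adjusted p was 0.177 and the DESeq2 adjusted p 0.180, so the gene was not called here. The study, in contrast, names *dnc-1* among cytoskeletal regulators enriched in the AB lineage. Its calls came from the same libraries at an adjusted p under 0.10, with DESeq, a different program. The absence of a call here is therefore not shared by the study, and why the calls differ was not tested.

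The call for *dnc-1* depended on the libraries in the fit. It passed the threshold in 4 of 9 edgeR fits that left libraries out: without P1 replicate 1 (log2 fold change -0.61, adjusted p 0.00749), without P1 replicate 2 (-1.06, 0.0106), without P1 replicate 3 (-0.99, 0.0517) and without pair 1 (-0.64, 0.000913). In these 4 fits, 3.51%, 2.71%, 1.77% and 3.01% of present genes were called AB-enriched. With the replicate number as a block it was not called (log2 fold change -0.93, edgeR adjusted p 0.207), in a fit that called 0.503% of present genes AB-enriched. Over all 9 fits the log2 fold change lay between -1.06 and -0.61. *dnc-1* shares its deposited locus with *rbr-2* on the opposite strand, and exons of the 2 genes overlap by 98 bases in the WBcel235 annotation. Whether strand was used in counting is not given in the sources used here, so reads in those bases cannot be told apart; the same holds for *dli-1*, *nud-2*, *dnc-2* and *dyci-1*, whose exons overlap those of an opposite neighbor by 16, 98, 114 and 176 bases. *rbr-2* had 5485, 10210 and 11860 normalized read counts in P1 and 9185, 7497 and 8452 in AB, a log2 fold change of 0.13 (edgeR adjusted p 0.886).

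*dnc-2* (C28H8.12, chromosome III) encodes p50 dynamitin, the shoulder subunit that anchors p150 to the complex. It had 3610, 5275 and 4406 normalized read counts in P1 and 4045, 4945 and 4835 in AB, and the cells overlapped. Its log2 fold change was -0.06 ± 0.23 (SE; 95% interval -0.53 to 0.41; edgeR adjusted p 0.951). Per kilobase of spliced length, the ratio of the *dnc-1* level to the *dnc-2* level was 0.125, 0.176 and 0.204 in P1, against 0.319, 0.304 and 0.276 in AB. This ratio within a library, described after the values were seen and with no test, did not overlap between cells. The ratio of *dhc-1* to *dyci-1* did not overlap either (0.503 to 0.608 in P1, 0.629 to 0.692 in AB). That of *dhc-1* to *dli-1* did, with 0.301 in P1 replicate 2 and 0.284 in AB replicate 3. These ratios take no account of the length trend described below.

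**Figure D2:**
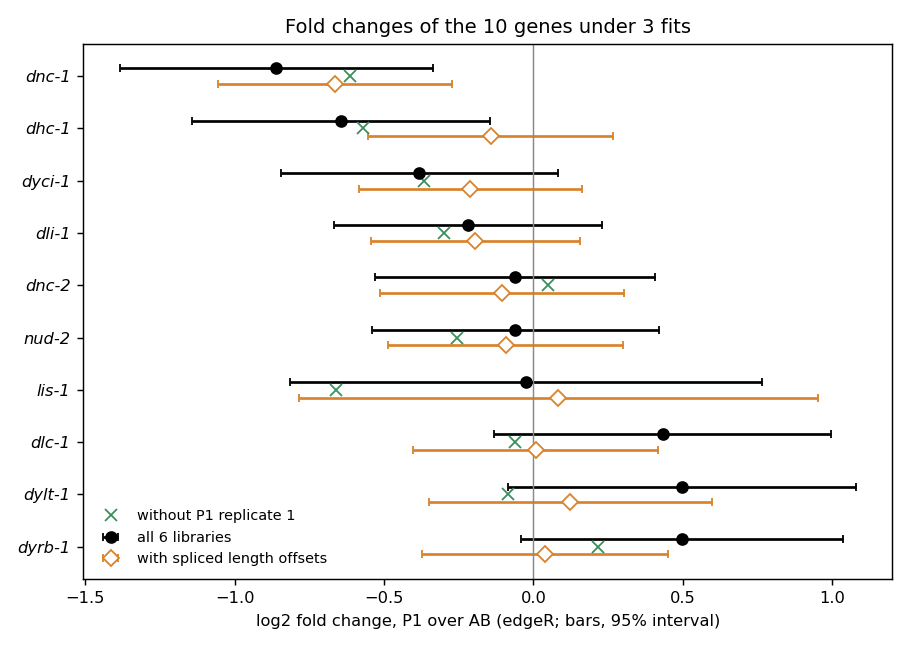
Log2 fold change, P1 over AB, of each of the 10 genes (rows) by edgeR, with 95% intervals. Black circles use all 6 libraries, orange diamonds add offsets for spliced length and green crosses leave out P1 replicate 1. The *dnc-1* interval lies below 0 with and without the length offsets, the *dhc-1* interval only without them, and the 3 light chains at the bottom move toward 0 in both other fits.

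Neither regulator passed the test, and the values of both overlapped between cells. *lis-1* (T03F6.5, chromosome III, 13371074 to 13376609) encodes LIS1, which binds the motor domain. It had 1223, 478 and 458 normalized read counts in P1 and 1310, 396 and 484 in AB. Both sister libraries of pair 1 were more than 2 times as high as all 4 others, which was so for 1 of the 10 genes and 0.604% of present genes. The log2 fold change was -0.03 ± 0.39 (SE; 95% interval -0.82 to 0.76; edgeR adjusted p 0.987), the widest interval of the 10, and leaving out single libraries moved it between -0.66 (without P1 replicate 1) and 0.68 (without AB replicate 1). The vitellogenin sum given above was high in the same 2 libraries, and its part in the *lis-1* values was not tested. *arp-1*, the actin-related filament subunit of dynactin, was picked out after its values were seen and was also highest in pair 1, with 6295, 2390 and 2662 in P1 and 4346, 1898 and 2472 in AB. Its log2 fold change was 0.37 with all libraries and -0.22 without P1 replicate 1, and it was called in neither fit. *nud-2* (R11A5.2, chromosome I), a NudE homolog that brings LIS1 to dynein, had 2338, 1762 and 1575 in P1 and 2233, 1821 and 1834 in AB. P1 replicate 1 and AB replicate 1 were its highest libraries, and the log2 fold change was -0.06 ± 0.23 (SE; 95% interval -0.54 to 0.42; edgeR adjusted p 0.956).

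**Figure D3:**
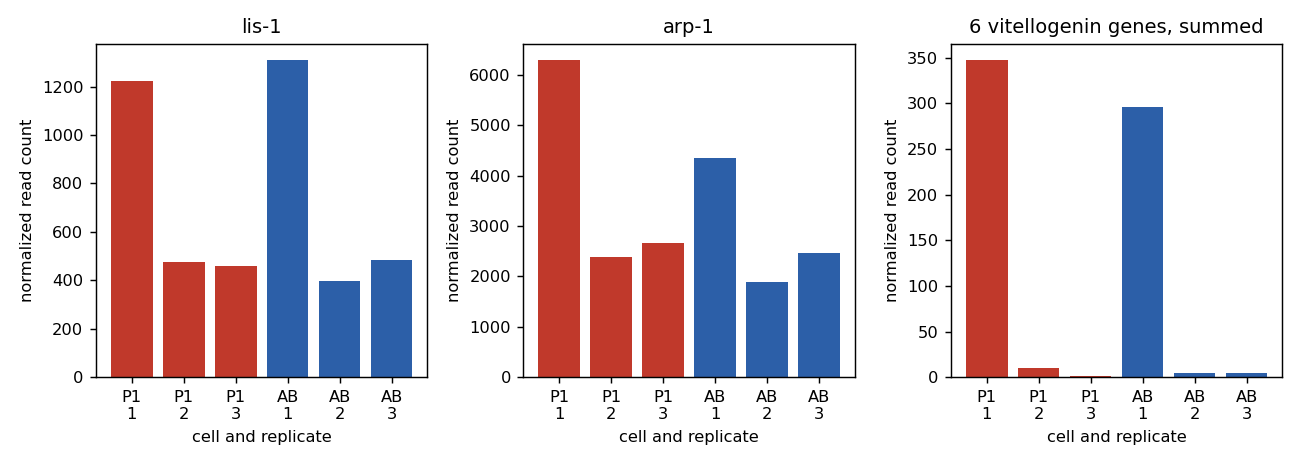
Normalized read count (vertical axes, from 0) in each library for *lis-1*, *arp-1* and the sum of 6 vitellogenin genes, P1 libraries in red and AB libraries in blue. In each panel the libraries of replicate 1 are the highest in both cells: 1223 and 1310 for *lis-1*, 6295 and 4346 for *arp-1*, and 348 and 296 for the vitellogenins.

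The fold changes of the 10 genes ran with transcript length. The genes were chosen by name, but with earlier results of these data known. The shortest transcripts, *dyrb-1* (397 bases), *dlc-1* (537 bases) and *dylt-1* (631 bases), had the positive values, and the longest, *dhc-1* (13864 bases) and *dnc-1* (4358 bases), the most negative. Across the 10 genes Pearson's r between log2 spliced length and log2 fold change was -0.908 and Spearman's rho -0.891, as a description of genes measured in the same 6 libraries. Across the 7806 present genes with a known length, r was -0.257 and rho -0.389. In pair 1 the median log2 ratio of present genes ran from 1.25 under 500 bases to -1.06 at 8000 bases or more (67 genes), whereas the medians in pair 2 and pair 3 stayed between -0.24 and 0.05 in every length class. Within pairs, r across the 10 genes was -0.923, -0.686 and -0.762 in pairs 1, 2 and 3, against -0.376, -0.012 and -0.008 across present genes. These r are not directly comparable. The 10 genes hold a larger share of very short and very long transcripts, with 1 at 8000 bases or more against 67 of 7806 present genes. Present genes also reach down to a mean normalized count of 10, far below any of the 10 genes.

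With offsets that took each library's length trend out, the 10 genes drew together except *dnc-1*. The study reported that AB-enriched transcripts were longer, and P1-enriched ones shorter, than symmetric ones. Offsets fitted to each library also take out a length difference of that kind between the cells. Whether the shifts below removed such a difference or a trend of single libraries was not tested. *dhc-1* moved to a log2 fold change of -0.14 (95% interval -0.55 to 0.27; edgeR adjusted p 0.823), and the light chains *dylt-1*, *dlc-1* and *dyrb-1* to 0.12, 0.01 and 0.04. *dyci-1* was at -0.21 and *dli-1* at -0.19. *dnc-1* stayed at -0.66 (95% interval -1.05 to -0.27; edgeR adjusted p 0.135), and it passed the threshold when the same offsets were joined with the replicate block (log2 fold change -0.67, edgeR adjusted p 0.0189), a fit that called 2.32% of present genes AB-enriched.

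**Figure D4:**
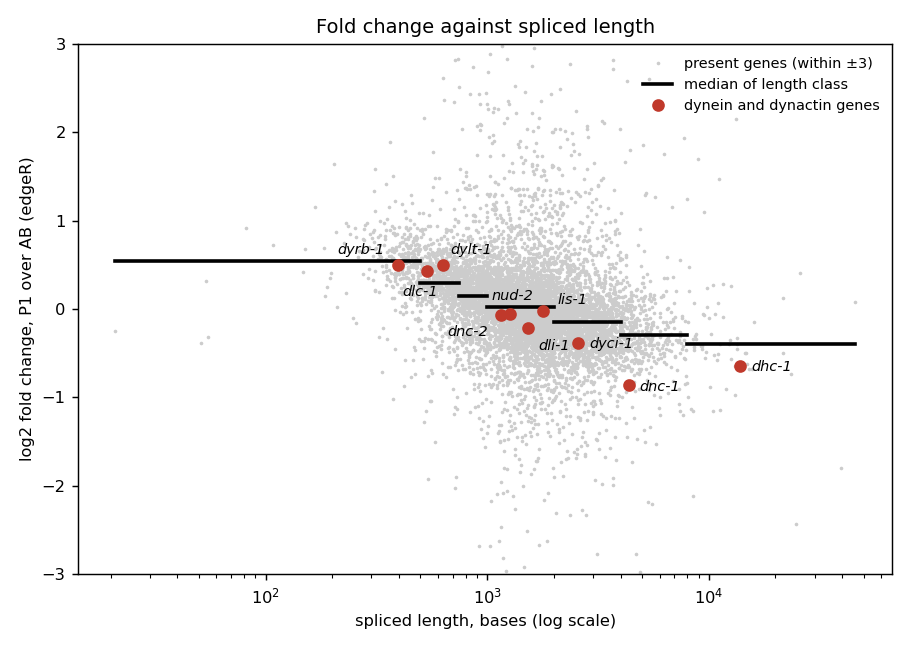
Log2 fold change, P1 over AB (edgeR), against spliced length in bases on a log axis, for the 10 genes (red, named) and the other present genes (grey; 69 present genes beyond 3 in either direction are not drawn). Black bars are medians of length classes, which go from 0.54 in the shortest class to -0.40 in the longest. *dnc-1* lies below the median of its class, as do the other named genes except *dlc-1* and *dylt-1*.

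Levels of different genes were compared as normalized read count per kilobase of spliced length, averaged over all 6 libraries (mean ± SD). The RNA was primed from its poly(A) end, so reads may not scale with full length, which was not tested. Before division by length, mean counts in P1 and AB were 21554 and 15854 for *dlc-1*, and 9711 and 15135 for *dhc-1*. The order below therefore depends on that division. *dlc-1* was highest at 34831 ± 13805, which was 38.9 times the level per kilobase of *dhc-1*, and all 6 of its libraries lay above every library of the next gene. Then came *dylt-1* at 4718 ± 2235, *dnc-2* at 3913 ± 536, *dyrb-1* at 3060 ± 941 and *dli-1* at 2880 ± 279, where each overlapped its neighbor in the order. *dli-1* was above *nud-2* (1527 ± 233) in all 6 libraries with no overlap. *dyci-1* at 1460 ± 296, *dnc-1* at 925 ± 333, *dhc-1* at 896 ± 282 and *lis-1* at 406 ± 237 closed the order, and each of them overlapped the neighbor above it. Compared library by library, *nud-2* was above *dyci-1* in 3 of 6 and *dyci-1* above *dnc-1* in all 6. In the same way, *dnc-1* was above *dhc-1* in 3 and *dhc-1* above *lis-1* in 5. The order was the same per kilobase of coding length.

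**Figure D5:**
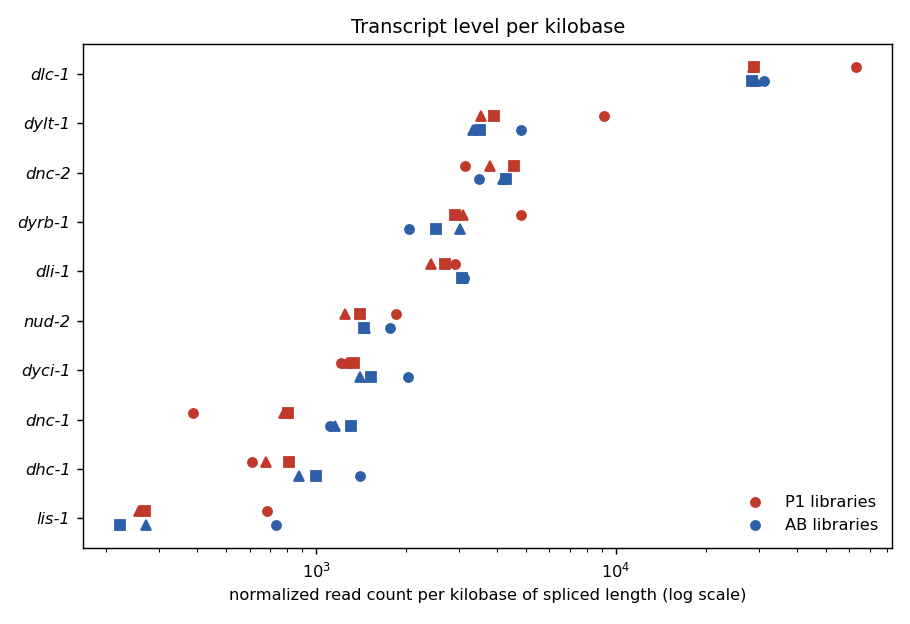
Level of each gene as normalized read count per kilobase of spliced length (log axis), ordered by the mean over the 6 libraries. Red symbols are P1 libraries and blue symbols AB libraries (circle, square and triangle for replicates 1, 2 and 3). *dlc-1* is separate from the other genes, and *dnc-1* and *dhc-1* lie side by side near the low end.

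The other genes of the pathway were taken from lists of the remaining dynactin subunits, paralogous light chains, ciliary dynein and proteins that recruit or anchor dynein. Of 29 such genes, 25 had reads and 21 were present, with 0 called AB-enriched (0.604% of all present genes) and 1 called P1-enriched (0.856%), and their median log2 fold change was -0.06. DESeq2 gave the same counts of 0 and 1, and 1 of the 21 had an unadjusted p under 0.05 in edgeR, against 10.4% of all present genes. The 1 call was *spdl-1*, which encodes Spindly, the adaptor that brings dynein to kinetochores. It had 1233, 1103 and 1252 normalized read counts in P1 and 303, 399 and 456 in AB. Every P1 library was more than 2 times as high as every AB library. In edgeR the log2 fold change was 1.62 ± 0.28 (SE), with an edgeR adjusted p of 0.00182, and it passed the threshold in all 8 other settings and in 9 of 9 fits that left libraries out.

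All 8 remaining dynactin subunits were present and none was called, with log2 fold changes from -0.31 for *cap-1*, an actin capping protein subunit, to 0.37 for *dnc-5*, the p25 pointed-end subunit. The *dnc-1* value of -0.86 was outside that range. *dnc-6*, the p27 pointed-end subunit, had 5678, 3029 and 3587 normalized read counts in P1 and 4009, 3967 and 5039 in AB, and it passed the threshold as AB-enriched only without pair 1 (log2 fold change -0.45, edgeR adjusted p 0.0703). All 11 recruiting or anchoring genes were present, from -0.45 for *bicd-1*, a BicD-type adaptor, up to *spdl-1*. Among them *zyg-12*, which tethers dynein to the nuclear envelope, had 3675, 2809 and 3300 in P1 and 6047, 3231 and 3637 in AB, and it passed only without P1 replicate 1 (log2 fold change -0.52, edgeR adjusted p 0.0502). Both genes were named after their values were seen. The light chain paralogs were nearly silent: of 7 genes, 5 had reads and 1 was present, *dlc-2*, at 6.79, 9.30 and 10.7 normalized read counts in P1 and 17.6, 9.63 and 9.23 in AB. Of 3 ciliary dynein genes only *che-3*, the heavy chain of the ciliary motor, had reads, at 0, 6.97 and 60.2 in P1 and 32.0, 8.15 and 16.8 in AB, with overlap between cells.

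The genes whose log values were most like those of *dnc-1* over the 6 libraries, among 6169 genes with a mean of at least 100 normalized read counts, were Y48G1C.1, *mau-8* and F54H12.5 (Pearson's r 0.998, 0.998 and 0.997). For *dhc-1* they were *npp-11*, a nucleoporin gene, *nas-39*, an astacin protease gene, and *patr-1*, which encodes a P-body protein (0.995, 0.993 and 0.991). With only 6 libraries such values were common, as 205 genes had an r above 0.95 with *dnc-1* and 46 with *dhc-1*.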

How the data were processed

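RNA was primed with oligo-dT and amplified by in vitro transcription before sequencing. The study's Illumina sequencers and read lengths differed among samples, and no fit here included either. Per the study's methods, the authors filtered reads, mapped them with TopHat 1.4.0 to the ce10 genome and counted them per gene with HTSeq 0.5.3, which gave the deposited raw read counts. The deposited normalized signal is those counts divided by DESeq 1.2.1 size factors. Gene names and positions were read from the table, where 4 of the 10 genes share a locus with a neighbor, so no position of their own is given.

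Raw counts of all 6 libraries were fitted with edgeR 4.0.16 (R 4.3.3; TMM, quasi-likelihood test) and no replicate term. The fit took in the 13717 gene models that had any read, and p-values were adjusted over all of them by the Benjamini-Hochberg method at 0.10. Alternatives were DESeq2 1.42.0, other scalings and filters, a replicate block, spliced length offsets (lowess span 0.3), a threshold of 0.05, and fits without each library or pair. Spliced lengths are those of the longest WBcel235 transcript, matched by WormBase identifier for 98.3% of present genes, and that annotation also gave the exon overlaps with neighbors. Positions printed are those of the deposited table, not of WBcel235. Fits were tested on simulated data. Levels and likeness used the authors' normalized signal, likeness on log2(value + 1).

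The replicate numbers were taken to pair sister cells, because the study pooled matched cells for each replicate. Deviations from the cell means correlated at 0.175, 0.220 and 0.173 within pairs 1, 2 and 3, against -0.219 to 0.080 between different numbers. These correlations are weak. Deviations from a mean sum to 0 within each cell, so the values within and between numbers are not independent. The labels do not say whether pools came from separate cultures, so p-values measure the spread between these pools. Floors of 3 counts cover counting error only, since amplified reads carried no molecular identifiers. The 10 genes and the pathway lists were chosen with earlier results of these data known. Named genes were all 10, pathway genes past the threshold or at the ends of their list, and the 3 genes most like *dhc-1* and *dnc-1*. *arp-1*, *dnc-6* and *zyg-12* fall outside this rule, and *rbr-2* was named as the overlapping neighbor of *dnc-1*.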

Additional observations from a re-analysis of the deposited data

How the results depend on the processing

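Under the 8 other settings with all libraries, none of the 10 genes changed its call except *dnc-1*, and the replicate block alone changed no call among the 10 or the pathway genes. Counts of AB-enriched genes, 48 with all libraries, were 75 with DESeq2, 76 with spliced length offsets, 26 with the filterByExpr filter and 25 with only present genes fitted. P1-enriched genes, 68 with all libraries, were 95 with DESeq2, 101 with spliced length offsets, and 27 and 27 under these filters. The replicate block gave 51 P1-enriched and 40 AB-enriched genes, and the block with length offsets 199 and 184, with 1 of the 10 genes (*dnc-1*) AB-enriched.

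Fits that left out libraries called 44 to 293 genes P1-enriched and 27 to 279 AB-enriched, with 0 to 2 of the 10 genes (*dnc-1* in 4 fits and *dhc-1* without P1 replicate 1) and 0 to 1 pathway genes AB-enriched. Among the 10 genes and the 6 pathway genes named by rule, the log2 fold change in the same fits crossed 0 for *dlc-1* (-0.063 to 0.63), *dylt-1* (-0.083 to 0.74), *dnc-2* (-0.24 to 0.048), *nud-2* (-0.26 to 0.062), *lis-1* (-0.66 to 0.68), *dlc-2* (-0.74 to 0.078) and *che-3* (-2.45 to 1.42). The sign also turned for *lis-1* with the replicate block (0.024), length offsets (0.084) and both (0.080), and for *che-3* with the replicate block (-0.71) and with both (-0.41). The cause was not tested.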
